A study of Mus musculus with 12 samples.

Results

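The genes described here are 7 that mark segments of the nephron tubule: Hnf4a, Gatm and Ass1 for the proximal tubule, and Irx3, Wfdc2, Egf and Fxyd2 for the loop of Henle and the distal tubule. They were taken as the probe sets annotated to exactly 1 of these symbols, which gave 8 probe sets for the 7 genes, of 8251 genes named on the array. Egf had 2 probe sets and each other gene had 1.

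The nephron begins as the renal vesicle, a small epithelial ball that forms from mesenchyme beside the tips of the collecting duct tree, and lengthens through the S-shaped body into a tubule. Its parts are laid out early: one end of the S-shaped body gives the glomerulus, the middle gives the proximal tubule and the loop, and the end that joins the collecting duct gives the distal tubule. Hnf4a and the enzymes and transporters of the proximal tubule mark cells that reabsorb filtered solutes, whereas the loop and distal genes mark cells that handle salt and make the Egf precursor protein. The collecting duct has another origin, the ureteric bud.

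Structures were microdissected by their morphology from kidneys of wild-type Swiss Webster embryos at E14.5. There were 12 arrays in 4 groups of 3: renal vesicles (replicates 2, 3 and 4) and S-shaped bodies (replicates 1, 2 and 3) amplified as pools of 20 structures, single S-shaped bodies (replicates 3, 4 and 5) amplified without pooling, and unpooled collecting duct (replicates 1, 2 and 3), the study's reference tissue. RNA from each went through 2 rounds of T7 amplification and was hybridised to Affymetrix arrays. The labels call each sample a biological replicate but do not say which embryos it came from, so p-values measure the spread between these samples. All samples share strain, stage and genotype, and none is an adult kidney with finished tubules.

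Levels are given below as log2 of the quantile-normalised intensity after adding a constant, and 2.85 is the lowest value this scale can take. Each array's background was taken from its negative tail: a value was called above background when it was larger than the size of the 5th percentile of that array, which lay below 0. The share of probe sets above background ran from 48.3% to 59.7% between arrays, and the medians of the deposited values differed by up to 17.8-fold. The correlation between replicates was 0.95 to 0.96 between vesicles, 0.97 between pooled and 0.91 to 0.94 between single S-shaped bodies, and 0.97 to 0.98 between duct samples. On the 20 ureteric bud and collecting duct markers present on the array, the collecting duct arrays had a mean level of 7.14 to 7.20 with 13 or 14 markers above background, against 8 to 11 on vesicle, 6 to 10 on pooled and 4 to 7 on single S-shaped body arrays. Of the 18 of these markers tested in vesicles against duct, 13 were lower and 1, Wnt11, higher. Over all probe sets tested there, 11.5% were lower and 12.2% higher. Krt19, Cldn4 and Lgals3, chosen after their values were seen, passed background on every duct array and on no array of the other groups. Ret, Wnt7b, Aqp2 and Gfra1 were above background on no array of any group. Of the 12 podocyte markers, 6 were above background on each duct array, 8 or 9 on vesicle arrays and 9 or 10 on S-shaped body arrays. Of 10 tested in vesicles against duct, beside the same shares of all probe sets, 5 were higher and 1, Cd2ap, lower (log2 change -1.51, adjusted p = 0.001142). These are bulk samples, in which fewer cells of a type and less RNA per cell cannot be told apart.

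The 4 genes that differed between renal vesicle and collecting duct are shown with the 250 bases before their start (RefSeq, mouse build GRCm38.p6), because these genes split, Gatm and Irx3 higher and Ass1 and Wfdc2 lower in the vesicles. RefSeq promoter entries were matched by symbol for 6 of the 7 genes. Gatm, Ass1 and Irx3 had 1 entry each. Wfdc2 had 2, of which the first is shown and the other is not described here. Capitals mark matches, on either strand, to any of 6 motifs: the TATA box (TATAAA), the CCAAT box (CCAAT), the E-box (CACGTG), the GC box (GGGCGG), the HNF1 core (GTTAAT) and a grainyhead-like motif (AACCNGTT). Gatm lies at chr2:122611278-122611527 on the minus strand, Ass1 at chr2:31470020-31470269 on the plus strand, Irx3 at chr8:91801655-91801904 on the minus strand and Wfdc2 at chr2:164562465-164562714 on the plus strand.
Gatm: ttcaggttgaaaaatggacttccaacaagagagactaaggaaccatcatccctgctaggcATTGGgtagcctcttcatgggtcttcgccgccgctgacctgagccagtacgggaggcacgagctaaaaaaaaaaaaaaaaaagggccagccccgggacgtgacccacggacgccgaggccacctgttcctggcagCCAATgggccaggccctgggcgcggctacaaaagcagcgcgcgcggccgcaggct
Ass1: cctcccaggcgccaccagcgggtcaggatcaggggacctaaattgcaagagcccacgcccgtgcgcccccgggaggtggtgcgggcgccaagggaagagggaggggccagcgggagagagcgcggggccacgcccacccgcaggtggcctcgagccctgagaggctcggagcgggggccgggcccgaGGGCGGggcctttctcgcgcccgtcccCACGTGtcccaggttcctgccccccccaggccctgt
Irx3: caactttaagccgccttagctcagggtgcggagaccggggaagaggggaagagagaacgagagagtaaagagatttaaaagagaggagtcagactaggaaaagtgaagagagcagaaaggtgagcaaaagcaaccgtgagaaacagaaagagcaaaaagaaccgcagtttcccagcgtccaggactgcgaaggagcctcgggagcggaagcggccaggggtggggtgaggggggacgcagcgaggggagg
Wfdc2: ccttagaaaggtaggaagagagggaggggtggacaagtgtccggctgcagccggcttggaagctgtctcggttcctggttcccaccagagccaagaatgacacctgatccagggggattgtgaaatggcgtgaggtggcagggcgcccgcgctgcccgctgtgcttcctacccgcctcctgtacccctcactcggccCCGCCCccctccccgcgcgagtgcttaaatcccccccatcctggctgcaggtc
Gatm held 2 CCAAT boxes, Ass1 a GC box and an E-box, and Wfdc2 a GC box, while these letters were not found in the Irx3 window. Of 32851 mouse windows of the same length, 33.8% held a CCAAT box, 32.7% a GC box, 6.02% this E-box, 12.4% the TATA letters, 6.43% the HNF1 core and 1.79% the grainyhead-like letters. The GC box was found in the 2 genes that were lower and in neither that was higher, a description of 4 windows that was not tested.

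**Figure D1:**
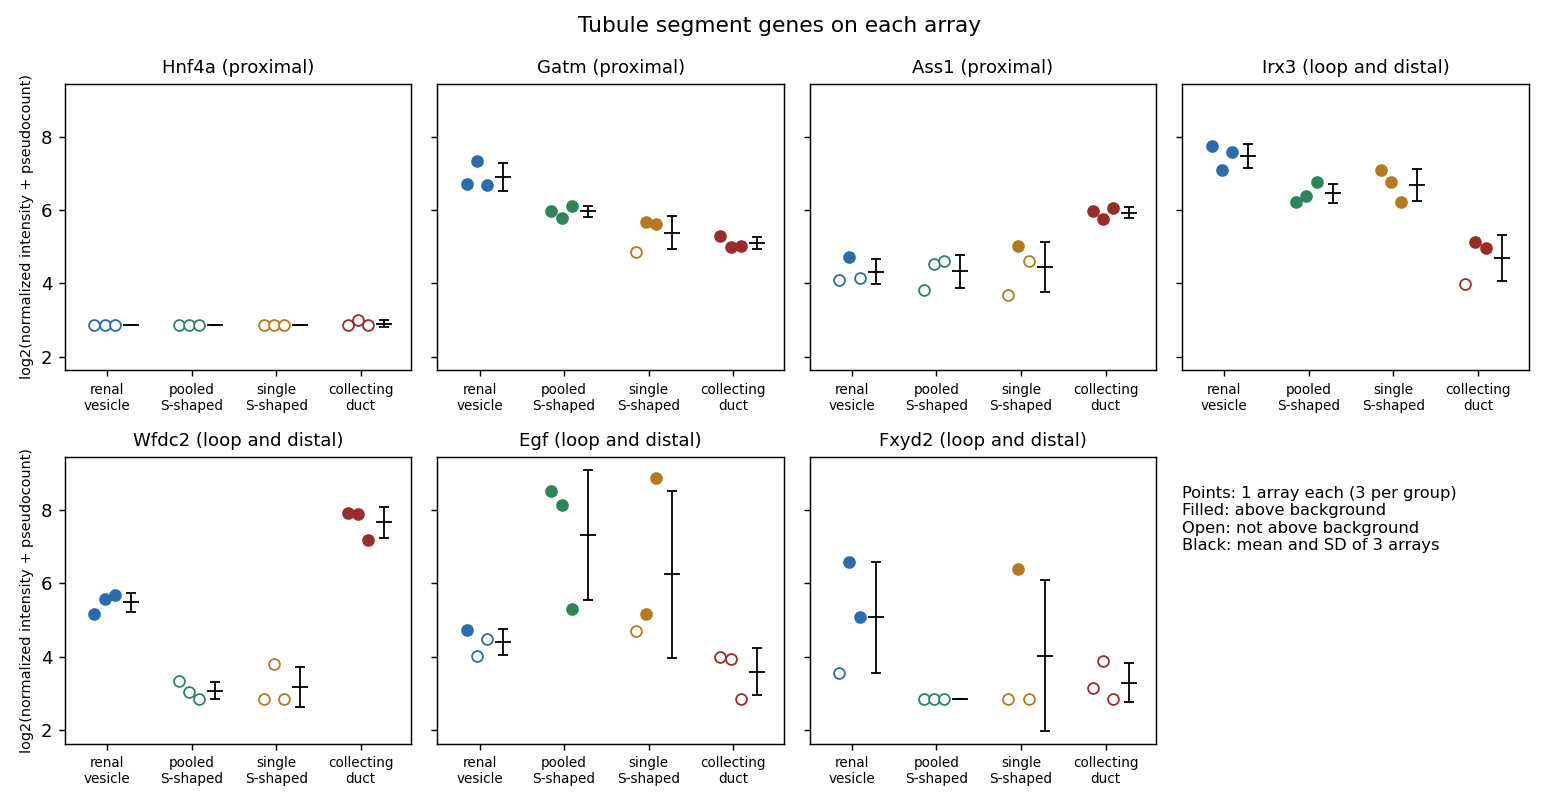
Level of each of the 7 genes on each of the 12 arrays, as log2 of normalised intensity plus a constant (vertical axis), by group (horizontal axis), with 1 point per array, filled where above background, and black bars for the mean and SD of 3 arrays. Wfdc2 and Ass1 are highest in collecting duct, Irx3 and Gatm in renal vesicles, Egf in 2 of the pooled and 1 of the single S-shaped body arrays, Fxyd2 is scattered, and Hnf4a is at the bottom of the scale throughout.

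Among the proximal tubule genes, Hnf4a was not measurable, Gatm was highest in renal vesicles and Ass1 was highest in collecting duct. Hnf4a encodes a nuclear receptor needed for proximal tubule cells to mature. Its probe set read 2.85 on 11 arrays and 3.0 on collecting duct replicate 2, under background on 12 of 12 arrays. It stood at the 5.68th percentile of mean level and was left out of all 6 comparisons by the filter on dim probe sets. A level this low is only a bound and does not show that the gene was silent.

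Gatm encodes the amidinotransferase that starts creatine synthesis. It read 6.69, 7.35 and 6.67 on the vesicle arrays, 5.98, 5.79 and 6.10 on the pooled S-shaped body arrays, 4.86, 5.66 and 5.62 on the single ones and 5.29, 4.98 and 5.02 on the duct arrays. The vesicles lay above all other arrays, the pooled S-shaped bodies lay between the vesicles and the collecting duct without overlap, and single replicate 3 fell below background and below the duct. The group means were 6.90 ± 0.38, 5.96 ± 0.16, 5.38 ± 0.45 and 5.10 ± 0.17 (SD, n = 3 each) in the same order. Gatm was 3.49-fold higher in renal vesicles than in collecting duct (log2 change 1.80 ± 0.24 SE, limma adjusted p = 3.425e-04), a call lost on the scale as deposited, without normalisation (0.39, adjusted p = 0.3176). It was 1.81-fold higher in pooled S-shaped bodies than in collecting duct (log2 change 0.86 ± 0.24 SE, adjusted p = 0.01623). This call was lost on the scale as deposited (0.54, adjusted p = 0.2279), without pooled replicate 3 (0.79, adjusted p = 0.05491), without collecting duct replicate 2 (0.80, adjusted p = 0.05288) and with dim values set to 1 common background level (0.65, adjusted p = 0.08054). From vesicle to pooled S-shaped body Gatm fell by 0.95 on the log2 scale (SE 0.24, adjusted p = 0.01024), although on the scale as deposited the change was 0.15 in the other direction. On that scale the median of all probe sets also moved, by 0.95 in this comparison. It moved by -1.39 in vesicles against duct and by -0.47 in pooled S-shaped bodies against duct.

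Ass1 encodes argininosuccinate synthase, which makes the precursor of arginine. Its levels were 5.98, 5.75 and 6.04 in collecting duct, all above background, against 4.09, 4.73 and 4.14 in renal vesicles. They were 3.82, 4.54 and 4.61 in pooled and 3.69, 5.03 and 4.62 in single S-shaped bodies. Outside the collecting duct 2 arrays, vesicle replicate 3 and single replicate 4, were above background, and no array of another group reached the lowest duct array. Ass1 was lower in renal vesicles than in collecting duct (log2 change -1.60 ± 0.30 SE, adjusted p = 0.003097), a size that rests on vesicle values of which 1 of 3 was above background. It was at least 2.39-fold lower in pooled S-shaped bodies (adjusted p = 0.001656), a bound that sets the dim group at its arrays' background. Between pooled S-shaped bodies and vesicles the log2 change was 0.001 (95% interval -0.67 to 0.67, adjusted p = 1). Ass1 was thus highest in the duct at this stage. Krt8, a duct keratin, had the most similar profile over the 12 arrays.

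Among the loop and distal genes, Irx3 was highest in renal vesicles, Wfdc2 in collecting duct and Egf in S-shaped bodies, while Fxyd2 differed widely between arrays of the same group. Irx3 encodes an Iroquois homeodomain factor of the intermediate nephron. It read 7.75, 7.10 and 7.57 on the vesicle arrays, 6.23, 6.37 and 6.75 on the pooled and 7.08, 6.76 and 6.22 on the single S-shaped body arrays. The collecting duct arrays read 3.98, 5.14 and 4.97, the first of them under background. All 9 nephron arrays were above all 3 duct arrays, and vesicles and pooled S-shaped bodies did not overlap. Irx3 was 6.86-fold higher in renal vesicles (log2 change 2.78 ± 0.32 SE, adjusted p = 1.089e-04) and 3.37-fold higher in pooled S-shaped bodies (1.75 ± 0.32 SE, adjusted p = 0.001336) than in collecting duct.

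The step from vesicle to pooled S-shaped body was less secure for Irx3. It fell by 1.02 on the log2 scale (SE 0.32, adjusted p = 0.02726), and on the scale as deposited the change was 0.076 in the other direction. The median of all probe sets moved by 0.95 on that scale. The call was lost with no filter (adjusted p = 0.07149) and without vesicle replicate 2 (0.09117) or 4 (0.07478) or pooled replicate 1 (0.09034) or 2 (0.07576), with changes of -0.89 to -1.02 in these fits. Irx3 was the single gene of the 6 Iroquois factors listed that the array measured.

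Wfdc2 encodes a small secreted protein with whey acidic protein domains that is made in distal nephron and collecting duct epithelium. Its collecting duct levels were 7.93, 7.90 and 7.18 and its renal vesicle levels 5.18, 5.59 and 5.67, above background on all 6 arrays. Pooled S-shaped bodies read 3.33, 3.05 and 2.85 and single ones 2.85, 3.81 and 2.85, none of them above background. The 3 tissues formed 3 separate ranges. Wfdc2 was 4.56-fold lower in vesicles than in duct (log2 change -2.19 ± 0.28 SE, adjusted p = 2.546e-04) and at least 8.02-fold lower in pooled S-shaped bodies than in duct (adjusted p = 7.102e-07). Pooled S-shaped bodies were at least 1.76-fold lower than vesicles (adjusted p = 1.011e-04).

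With dim values set to 1 common background level, 5.30, the vesicles' Wfdc2 was near that level and the last difference was not called (log2 change -0.22, adjusted p = 0.8305). Vesicle replicate 3 had the highest mean of the duct markers among vesicles, 5.29 against 4.14 and 4.26, and its sum over the 20 markers was 1833 in normalised intensity against 519 and 486. Without replicate 3 the change of Wfdc2 from vesicle to pooled S-shaped body was -2.35 (adjusted p = 4.584e-04), against -2.40 with it, and from duct to vesicle -2.24 (adjusted p = 8.81e-04), against -2.19 with it. Summed duct markers were 909 to 1638 in pooled S-shaped bodies, where Wfdc2 was under background, and 11735 to 13155 in collecting duct. The part of duct cells in the Wfdc2 levels of the vesicles was not tested.

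Egf encodes the epidermal growth factor precursor, a membrane protein of the loop and distal tubule. Its brighter probe set read 8.51, 8.15 and 5.29 on the pooled S-shaped body arrays and 4.70, 5.18 and 8.87 on the single ones. The vesicle arrays read 4.72, 4.02 and 4.49 and the duct arrays 3.99, 3.94 and 2.85. The S-shaped body arrays fell into 3 near 8 or 9 and 3 near 5, with both kinds among pooled and single samples, so the group SDs were 1.76 and 2.28 against 0.35 in vesicles and 0.64 in duct. Egf was above background on 3 pooled arrays, 2 single arrays and 1 vesicle array. It was at least 6.13-fold higher in pooled S-shaped bodies than in collecting duct (adjusted p = 0.001644) and higher than in vesicles, of which 1 of 3 was above background (log2 change 2.91 ± 0.70 SE, adjusted p = 0.007457). Without pooled replicate 3, the low array, these changes were 4.73 and 3.92 on the log2 scale. Both calls were lost with dim values set to 1 common background level (2.02 each, adjusted p = 0.1413 and 0.145), and the second with the mean over both Egf probe sets (1.19, adjusted p = 0.05928). The second probe set was under background on 12 of 12 arrays and was tested in no comparison, so only the first gave a measured level. In vesicles against duct Egf had a log2 change of 0.81 ± 0.70 SE, which did not pass the test (adjusted p = 0.4403).

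Fxyd2 encodes the gamma subunit of the Na,K-ATPase, the pump that drives salt uptake along the tubule. The vesicle arrays read 3.55, 6.59 and 5.08, the pooled S-shaped body arrays 2.85 each, the single ones 2.85, 6.40 and 2.85 and the duct arrays 3.15, 3.87 and 2.85. Of the 12 arrays 3 were above background: vesicle replicates 3 and 4 and single replicate 4. Fxyd2 was called lower in pooled S-shaped bodies than in vesicles, by at least 1.33-fold (adjusted p = 0.01634). Without vesicle replicate 3, the highest, the fitted change moved from -2.22 to -1.46 (adjusted p = 0.04191), and the call was lost with no filter (0.06372), with all 12 arrays in the fit (0.07328) and with dim values set to each array's own background level (0.07675) or to 1 common level (0.561). Against collecting duct, Fxyd2 was at least 1.29-fold higher in vesicles, which did not pass the test (adjusted p = 0.06007), and pooled S-shaped bodies and duct were both under background. Without vesicle replicate 2, the vesicle array under background, the test against duct was passed (2.54, adjusted p = 0.005348).

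Read by comparison, 6 of the 7 genes could be tested in vesicles against duct, of which Gatm and Irx3 rose and Ass1 and Wfdc2 fell. These 4 calls stand beside 23.8% of all 9316 probe sets called there, 12.2% higher and 11.5% lower. Pooled S-shaped bodies against duct gave 3 genes higher (Gatm, Irx3, Egf) and 2 lower (Ass1, Wfdc2) of 6, where 38.5% of probe sets were called, 18.4% higher and 20.1% lower. Pooled S-shaped bodies against vesicles gave Egf higher and Gatm, Irx3, Wfdc2 and Fxyd2 lower of 6, where 36.7% were called, 17.6% higher and 19.2% lower. The groups did not overlap for 5 of the 6 tested genes in each of these comparisons, against 39.5%, 52.3% and 47.4% of all probe sets. The median log2 change of the tested genes was 1.30, 0.21 and -0.99 in these 3 comparisons, against -0.02, -0.07 and -0.03 over all probe sets. The first 2 comparisons share the collecting duct arrays and the third the arrays of both others, so the 3 are not independent.

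**Figure D2:**
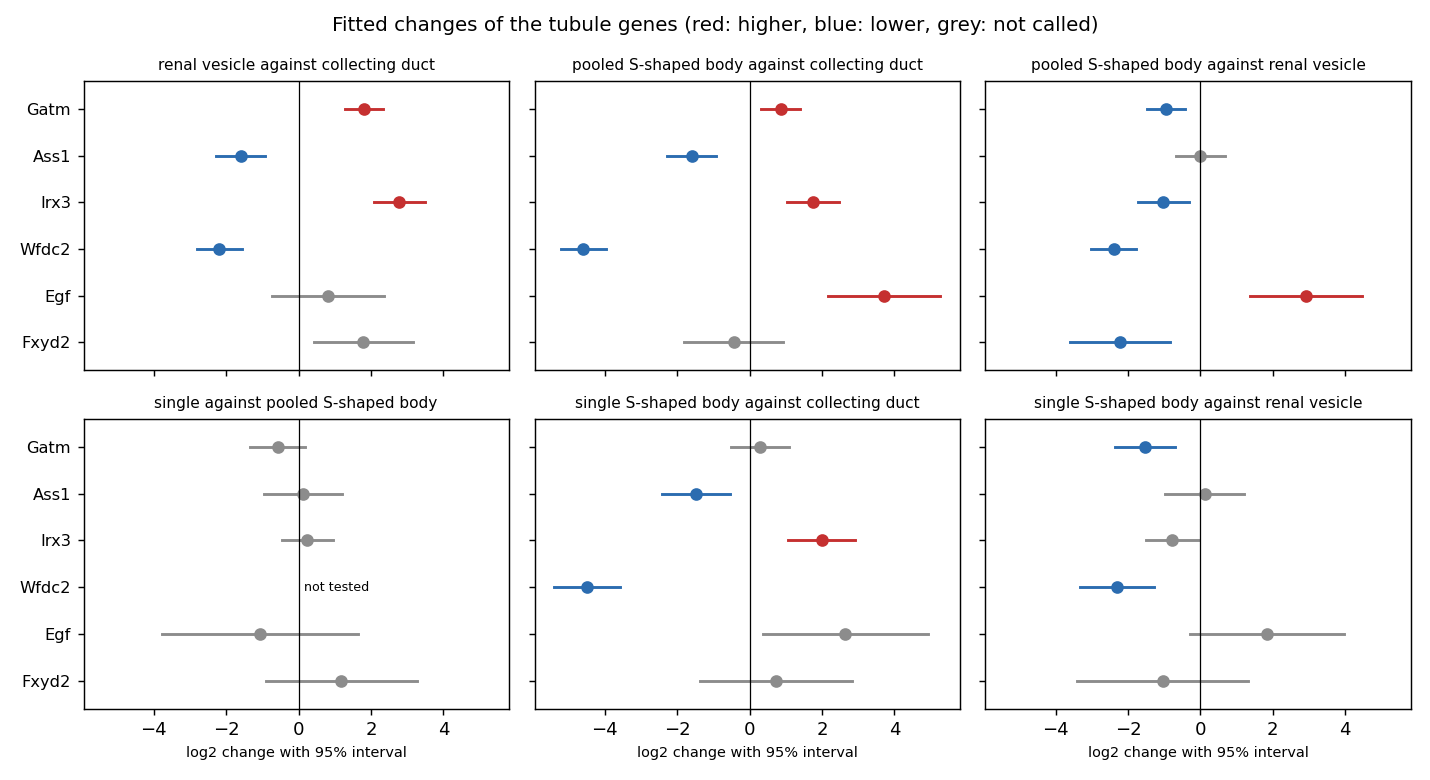
Fitted log2 change with its 95% interval (horizontal axis) for the 6 genes that could be tested (vertical axis) in each of the 6 comparisons, red where called higher, blue where called lower and grey where not called. Irx3 lies right of 0 and Wfdc2 and Ass1 left of 0 in each panel against collecting duct, and no gene is called between single and pooled S-shaped bodies. On the scale as deposited Gatm and Irx3 change sign in the panels of pooled S-shaped body against vesicle and of single S-shaped body against duct. There the median of all probe sets moved by 0.95 and -2.56.

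Other cells moved with these comparisons. The 15 endothelial markers had a mean level of 7.75 to 8.16 in pooled S-shaped bodies, 7.41 to 7.96 in single ones, 4.73 to 5.58 in vesicles and 3.62 to 3.80 in duct, with 14, 13, 5 to 10 and 1 to 2 of them above background. The 19 stroma markers ran at 6.91 to 7.05, 6.91 to 7.02, 4.71 to 6.18 and 3.72 to 3.95 in the same order, with vesicle replicate 3 the highest vesicle. Pecam1, Cdh5 and Kdr (endothelium) and Pdgfra, Col1a2 and Col3a1 (stroma) were above background on no duct array. Other markers had signal in duct. Sox18 (endothelium) was above background on 3 of 3 duct arrays and 1 of 3 vesicle arrays, and lower in vesicles than in duct (log2 change -2.06, limma adjusted p = 0.002736). Eng (endothelium) passed background on 1 duct array but was higher in vesicles than in duct (log2 change 4.44, limma adjusted p = 3.523e-04). On each duct array 2 to 4 of the stroma markers passed background. The 12 nephron progenitor markers were highest in vesicles, at 6.34 to 6.82 against 4.92 to 5.42 in pooled S-shaped bodies, 4.84 to 5.05 in single ones and 4.30 in duct. The 9 red blood cell markers summed to 5425 to 7132 in pooled S-shaped bodies, 1354 to 4947 in single ones, 219 to 967 in vesicles and 261 to 278 in duct. The part of these cells in the changes of the tubule genes was not tested.

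RNA controls also differed between groups. The ratio of the actin probe set at the 3' end to the middle one was lowest for the pooled S-shaped bodies, 3.67 ± 0.39, against 8.58 ± 0.61 in vesicles, 8.69 ± 1.5 in single S-shaped bodies and 8.25 ± 2.09 in duct (SD, n = 3 each). The ratio of actin 3' to 5' was 85.7 ± 8.64 in single S-shaped bodies against 38.3 ± 7.65 in pooled ones and 39.6 ± 3.62 in vesicles, and ran from 27.7 to 89.4 in duct. The Gapdh ratio of 3' to 5' was highest for the pooled S-shaped bodies, 23.9 ± 3.82, against 10.96 ± 3.23, 10.8 ± 2.005 and 10.3 ± 1.55 in the others. The part of RNA quality in the results was not tested.

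Single S-shaped bodies were compared with pooled ones to learn what amplification of 1 structure gives. No tubule gene was called of 5 tested by limma, where 0.397% of all probe sets were called, and 0 of the 5 had an unadjusted p under 0.05, the smallest being 0.1208 for Gatm. Hnf4a and Wfdc2 were too dim to be tested. The intervals of the difference were wide: -1.35 to 0.19 for Gatm, -0.96 to 1.21 for Ass1, -0.46 to 0.94 for Irx3, -3.77 to 1.63 for Egf and -0.90 to 3.26 for Fxyd2 on the log2 scale. They do not show that single and pooled structures gave the same level. The groups did not overlap for Gatm, the single arrays lying lower, as for 25% of all probe sets. The spread between single structures was larger than between pools for Gatm (SD 0.45 against 0.16), Ass1 (0.69 against 0.44), Irx3 (0.44 against 0.27) and Egf (2.28 against 1.76), with 3 arrays in each group and no test of the difference in spread.

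Against collecting duct, single S-shaped bodies had Irx3 3.98-fold higher (log2 change 1.99 ± 0.41 SE, adjusted p = 0.006112), Ass1 lower (-1.48 ± 0.41 SE, adjusted p = 0.02319, with 1 of 3 single arrays above background) and Wfdc2 at least 6.17-fold lower (adjusted p = 1.089e-04), 3 of 6 genes where 33.6% of probe sets were called. On the scale as deposited, on which the median of all probe sets moved by -2.56, Irx3 was at -0.60. The Ass1 call was lost with no filter (adjusted p = 0.06568) and without collecting duct replicate 1, 2 or 3 (0.08915, 0.06641 and 0.09158). Egf, at least 2.91-fold higher, did not pass the test (adjusted p = 0.07431), but did so without single replicate 3 (3.43, adjusted p = 0.03712). Gatm had a log2 change of 0.28 (95% interval -0.52 to 1.08) and Fxyd2 of 0.74 (-1.36 to 2.84).

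Against renal vesicles, single S-shaped bodies had Gatm 2.88-fold lower (log2 change -1.53 ± 0.37 SE, adjusted p = 0.01508) and Wfdc2 at least 1.35-fold lower (adjusted p = 0.006035), 2 of 6 genes where 27% of probe sets were called. Without vesicle replicate 3 the Gatm call was lost (-1.30, adjusted p = 0.06747). With 1 common background level both were lost (adjusted p = 0.05867 for Gatm and 0.3128 for Wfdc2), and with each array's own level Wfdc2 was (0.2393). Irx3 had a log2 change of -0.78 (adjusted p = 0.09906), Egf of 1.84 (adjusted p = 0.1847), Fxyd2 of -1.04 (adjusted p = 0.5025) and Ass1 of 0.12 (adjusted p = 0.875). The groups did not overlap for 4 of 6 genes against duct and 3 of 6 against vesicles, beside 48.4% and 44.6% of all probe sets.

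The wider proximal tubule list held 54 genes, of which 42 were on the array and 29 passed the filter in the fit of 9 arrays. Of the 29, 5 were higher and 3 lower in vesicles than in duct, 6 higher and 3 lower in pooled S-shaped bodies than in duct, and 5 higher and 3 lower in pooled S-shaped bodies than in vesicles, with median log2 changes of 0.23, -0.03 and 0.001. Over all probe sets 23.8%, 38.5% and 36.7% were called in these comparisons, so the list's counts are near or under the background. Dpp4, a peptidase of the brush border, was higher in pooled S-shaped bodies than in duct by 5.13 on the log2 scale and than in vesicles by 3.52 (adjusted p = 1.212e-05 and 2.325e-04). Dab2, an endocytic adaptor, was higher than in duct by 3.99 in pooled S-shaped bodies and by 2.59 in vesicles (adjusted p = 2.813e-05 and 0.001137). Slc7a9, a cystine transporter subunit, was at least 3.14-fold higher in pooled S-shaped bodies than in duct and at least 3.50-fold higher than in vesicles (adjusted p = 6.366e-05 and 2.945e-04). Slc2a2, a glucose transporter, was at least 2.32-fold higher in vesicles than in duct and at least 2.38-fold lower in pooled S-shaped bodies than in vesicles (adjusted p = 0.001943 and 5.335e-04). Pdzk1, a scaffold of brush border transporters, and Cubn, an endocytic receptor, were lower than in duct in pooled S-shaped bodies by log2 changes of -4.30 and -1.17 (adjusted p = 3.255e-04 and 0.01283). The dimmer group was above background on 1 of 3 arrays for Dab2 (duct) and for Pdzk1 and Cubn (pooled S-shaped bodies), so these sizes rest partly on values under background.

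The loop and distal list held 42 genes, 24 on the array and 16 tested. Of the 16, 2 were higher and 4 lower in vesicles than in duct, 3 higher and 6 lower in pooled S-shaped bodies than in duct, and 2 higher and 7 lower in pooled S-shaped bodies than in vesicles, with median log2 changes of 0.29, -0.44 and -0.81. The shares of all probe sets called in these comparisons were 23.8%, 38.5% and 36.7%. The list includes members described above, so its counts are not separate from theirs. Irx3 and Wfdc2 were among its calls in vesicles against duct, and Irx3, Wfdc2 and Egf among those in the other comparisons. Sim1, a transcription factor, was 2.60 higher on the log2 scale in vesicles than in duct (adjusted p = 0.003125) and fell by 4.21 from vesicles to pooled S-shaped bodies (adjusted p = 9.667e-05), where 1 of 3 arrays was above background. Slc16a7, a monocarboxylate transporter, was at least 3.03-fold lower in pooled S-shaped bodies than in duct and at least 1.64-fold lower than in vesicles (adjusted p = 1.14e-05 and 1.668e-04). Slc8a1, a sodium-calcium exchanger, was lower in vesicles than in duct by a log2 change of -1.87 (adjusted p = 5.561e-05). Umod, an abundant product of the mature thick ascending limb, and Slc12a3, the salt transporter of the distal convoluted tubule, were above background on no array. Slc12a1, the loop's salt transporter, was above background on 1 array, a vesicle.

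**Figure D3:**
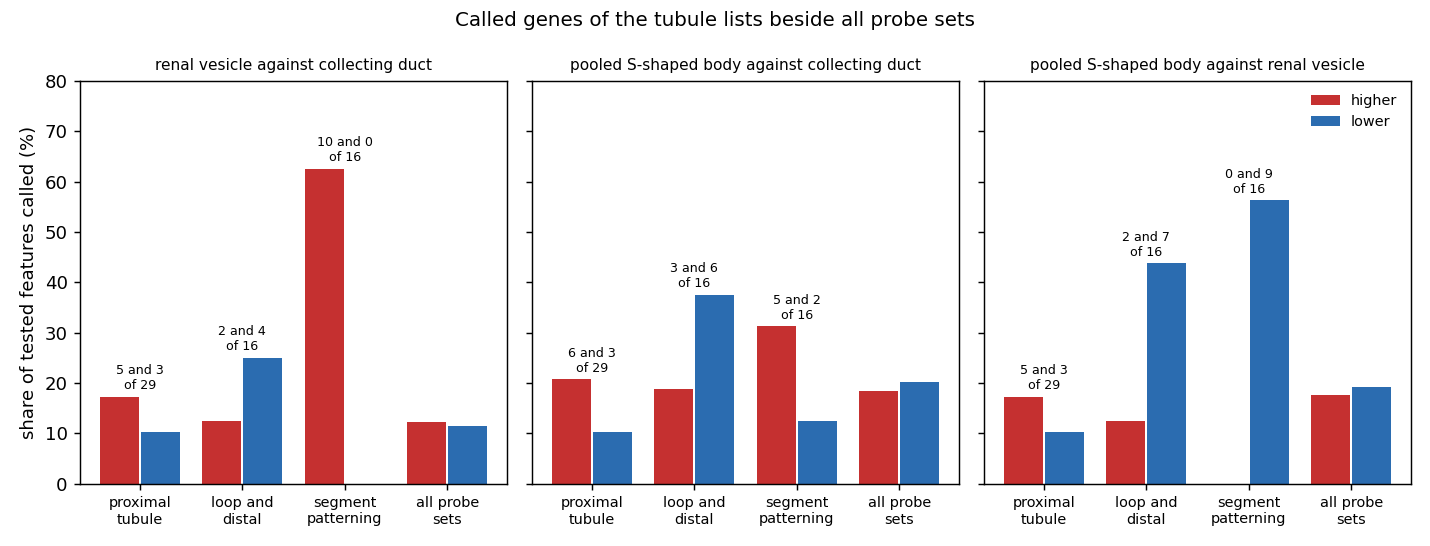
Share of tested genes called higher (red) or lower (blue), in percent (vertical axis), for the proximal tubule, loop and distal tubule and segment patterning lists and for all probe sets (horizontal axis), in 3 comparisons, with the counts above the bars. The patterning list has 10 higher and 0 lower of 16 in vesicles against duct and 0 higher and 9 lower of 16 in pooled S-shaped bodies against vesicles, beside 12.2% higher and 19.2% lower over all probe sets. The loop and distal list includes the members Irx3, Wfdc2 and Egf.

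The segment patterning list, of early regulators such as Notch and Wnt pathway genes, had 27 genes, 19 on the array and 16 tested. In vesicles against duct 10 were higher and 0 lower, in pooled S-shaped bodies against duct 5 were higher and 2 lower, and in pooled S-shaped bodies against vesicles 0 were higher and 9 lower, with median log2 changes of 1.43, -0.16 and -0.94. Over all probe sets 23.8%, 38.5% and 36.7% were called in these comparisons. Hey1, a Notch target, was higher than in duct by 5.88 on the log2 scale in vesicles and by 4.52 in pooled S-shaped bodies (adjusted p = 4.847e-07 and 1.885e-06). For Hey1 1 of 3 duct arrays was above background, so these sizes rest partly on values under background. Dll1, a Notch ligand, was at least 6.27-fold higher in vesicles than in duct and at least 6.44-fold lower in pooled S-shaped bodies than in vesicles (adjusted p = 6.389e-07 and 2.214e-06). Wnt4, the signal that turns mesenchyme into vesicle, was at least 7.76-fold lower in pooled S-shaped bodies than in vesicles (adjusted p = 2.214e-06). It was also above background on 3 of 3 duct arrays, and at least 2.77-fold lower in pooled S-shaped bodies than in duct (adjusted p = 5.491e-06).

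Of 17 tested genes of arginine, urea and creatine metabolism, 2 were higher and 2 lower in vesicles than in duct: Oat, which links ornithine to glutamate, by 1.21 on the log2 scale (adjusted p = 0.001203) with Gatm, and Arg2, a mitochondrial arginase, by -1.27 (adjusted p = 0.01721) with Ass1. These 4 of 17 are close to the 23.8% of all probe sets called there. Arg2 was above background on 1 of 3 vesicle arrays, so its size rests partly on values under background. Slc6a8, the creatine transporter, fell by 2.13 from vesicles to pooled S-shaped bodies (adjusted p = 2.024e-04), where 2 genes of this list were higher and 4 lower. In that comparison 36.7% of all probe sets were called. Arg1, the cytosolic arginase, was at least 2.17-fold higher in pooled S-shaped bodies than in duct (adjusted p = 0.001971).

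Of 7 tested Na,K-ATPase and FXYD genes, 1 was higher and 2 lower in vesicles than in duct, where 23.8% of all probe sets were called. Atp1b3, a pump beta subunit, was 0.64 higher on the log2 scale (adjusted p = 0.0143), Atp1b1, another beta subunit, was at -1.37 (adjusted p = 0.004248), and Fxyd3, a relative of Fxyd2, was at least 5.79-fold lower (adjusted p = 3.264e-05). In pooled S-shaped bodies against vesicles Fxyd2 was the 1 gene of the 7 called, beside 36.7% of all probe sets. Of 5 tested EGF family and receptor genes, Erbb3 was lower by -3.57 on the log2 scale (adjusted p = 5.406e-06) and Egfr, the receptor of Egf, at least 1.59-fold lower in vesicles than in duct (adjusted p = 0.02898). Hbegf, another ligand of Egfr, was higher in pooled S-shaped bodies than in vesicles by 2.14 (adjusted p = 0.01724), beside Egf. Tgfa, also a ligand in this list, was lower there (log2 change -1.01, adjusted p = 0.02429), with 1 of 3 vesicle arrays and no pooled array above background. The 5 thus gave 2 higher and 1 lower.

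Of 13 tested HNF network factors, Nr2f1, an orphan nuclear receptor, was at least 16.1-fold higher in vesicles than in duct (adjusted p = 3.636e-08), and Foxa1, an epithelial forkhead factor, was lower by -6.64 on the log2 scale (adjusted p = 3.615e-06). For Foxa1 1 of 3 vesicle arrays was above background, so this size rests partly on values under background. These 13 gave 2 higher and 1 lower in that comparison and 3 higher and 3 lower in pooled S-shaped bodies against vesicles. The shares of all probe sets called there were 23.8% and 36.7%. Of 4 tested whey acidic protein domain and related inhibitor genes, Spint1, a membrane protease inhibitor, was with Wfdc2 lower in vesicles than in duct, at least 12.4-fold (adjusted p = 6.206e-07).

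Profiles over the 12 arrays were compared with 7291 other probe sets, as a description without a test, since the arrays share their groups. The nearest to Gatm was Six2, a nephron progenitor factor (Pearson r = 0.95), followed by Mpdz and Kif20a (0.92 and 0.91). Nearest to Ass1 were Krt8 (0.97), Pkp2 (0.96) and Gsta3 (0.95), and nearest to Irx3 were Ncam1, Gar1 and Adk (0.96, 0.96 and 0.95). Wfdc2 was most like Cdcp1 (0.98), Gng10 (0.98) and Plet1 (0.97). Egf was most like H2-D1, Lmo7 and Sema3e (0.95, 0.94 and 0.94). Fxyd2 had the weakest likenesses, to Mrpl2, Prpf6 and Cdh6 (0.88, 0.84 and 0.83). Between the members the strongest correlations were -0.82 for Ass1 with Irx3, 0.75 for Ass1 with Wfdc2 and -0.72 for Wfdc2 with Egf.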

How the data were processed

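Affymetrix arrays of 12 microdissected samples were analysed, 3 per group. The deposited values were probe set intensities on a linear scale, made with GCOS per the submitters' processing notes, while its version, summary method and scaling target were not given in the sources used here. Of 12422 probe sets, 10833 had 1 gene symbol in the platform annotation, 396 several and 1193 none, and no array pair was identical.

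From the deposited intensities, 66 control probe sets were left out, values were quantile normalised, floored at 0, raised by a pseudocount of 7.22 (25% of the median, 28.9) and put on a log2 scale. Fold changes of dim genes are understated on it. A filter on the mean over the fitted arrays, at its 25th percentile, left 9316 probe sets. Changes were tested two-sided with limma 3.58.1 in R 4.3.3 (lmFit, eBayes with a trend), with Benjamini-Hochberg adjustment over all 9316 and a call at adjusted p under 0.05. Renal vesicle, pooled S-shaped body and collecting duct were fitted on 9 arrays, and each comparison of single S-shaped bodies on 6. Where a group was under background on all its arrays, folds are bounds against the mean of its arrays' background or its own signal, whichever was higher. The number of arrays limits the precision.

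A gene was read from its brightest probe set. Named genes are the 7 members, from each list up to 3 called genes per direction, ranked by size of change, and the 3 nearest profiles per member. Krt19, Cldn4, Lgals3 and other markers named by their background status, and Umod, Slc12a1 and Slc12a3, were chosen after their values were seen. The members and lists were chosen with earlier results of these data known. Alternatives changed the pseudocount, normalisation, filter, variance model, arrays in the fit, replicate block, probe set rule and left out each array. The 2 settings that raise dim values to a background level were chosen after seeing the data. The script was tested on simulated data.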

Additional observations from a re-analysis of the deposited data

Results flagged for a closer look

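The change against collecting duct differed between pooled S-shaped bodies and renal vesicles for 5 genes. This difference is the direct comparison of pooled S-shaped bodies with vesicles, since both are set against the same duct arrays, and was tested with limma. It was -0.95 for Gatm, -1.02 for Irx3, -2.40 for Wfdc2, 2.91 for Egf and -2.22 for Fxyd2 on the log2 scale. Egf was above background on 3 of 3 pooled S-shaped body arrays and on 0 of 3 duct arrays, and Wfdc2 the reverse. In no group were there enough arrays to test for a single outlying sample.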

How the results depend on the processing

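Of the changes of single genes under other settings, 627 kept their direction and side of the threshold, 15 passed it newly, 30 no longer passed it and 19 changed sign. On the scale as deposited, the median of all probe sets moved to -1.39, -0.47, 0.95, -2.20, -2.56 and -1.06 (vesicle against duct, pooled against duct, pooled against vesicle, single against pooled, single against duct, single against vesicle). There the sign changed for Gatm (0.15) and Irx3 (0.076) in pooled against vesicle, Ass1 (-1.35) and Irx3 (-2.20) in single against pooled, Gatm (-2.02), Irx3 (-0.60) and Fxyd2 (-0.024) in single against duct, and Ass1 (-0.49) in single against vesicle. Gatm no longer passed in vesicle against duct (0.39) or pooled against duct (0.54). Tubule genes called were then 3 in pooled against vesicle (5 in the main analysis) and 4 in single against pooled (0). Of the probe sets called in each comparison, the share that was higher was 3.30%, 24.98%, 94.0%, 0.217%, 2.40% and 4.91%, against 51.5%, 47.8%, 47.8%, 62.2%, 47.3% and 46.4% in the main analysis. Scaling to the 75th percentile gave 80.1% in single against pooled.

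Ass1, near 0 in 3 comparisons, changed sign in pooled against vesicle with a pseudocount of 10% of the median (-0.0066) and without vesicle replicate 2 (-0.11) or 4 (-0.087) or pooled replicate 2 (-0.11) or 3 (-0.14; range -0.14 to 0.25 with 1 array left out), in single against pooled without pooled replicate 1 (-0.13) or single replicate 4 (-0.17; range -0.17 to 0.50), and in single against vesicle without single replicate 4 (-0.17; range -0.17 to 0.50). With no filter, 3 tubule genes were called in pooled against vesicle, and with a filter at the 50th percentile 1 in single against vesicle (2). With each array's own background level as the floor, which differs between arrays and so makes differences of its own, the counts were 1 in single against pooled, 5 in single against duct (3) and 5 in single against vesicle, Hnf4a among them. Of the probe sets called in single against vesicle, 80.5% were then higher. Egf in vesicle against duct was then at -0.14 and Fxyd2 in single against vesicle at 0.12. With 1 common level the counts were 3 in pooled against duct (5), 2 in pooled against vesicle and 0 in single against vesicle. Leaving out 1 array gave 4 to 5 called genes in each comparison of vesicles, pools and duct, 0 in single against pooled, 2 to 4 in single against duct and 1 to 2 in single against vesicle.

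Replicate numbers did not pair the samples: same-numbered deviations correlated between -0.083 and 0.050. With the replicate block, 4 tubule genes were called in vesicle against duct, 5 in pooled against duct, 3 in pooled against vesicle and 0 in single against vesicle, where Ass1 was at -0.078. The genes no longer called were Irx3 (-0.74, adjusted p = 0.1468) and Fxyd2 (-2.18, 0.08084) in pooled against vesicle and Gatm (-1.75, 0.1031) and Wfdc2 (-2.30, 0.06884) in single against vesicle. The block could not be fitted for single against pooled or single against duct, which share 1 number. Over all probe sets, calls in vesicle against duct were 2213, with the block 1372, as deposited 7254 and with the common level 1446. In pooled against vesicle they were 3422 and as deposited 5436. In single against pooled they were 37, and 8298 as deposited, 141 at the 75th percentile, 426 with all 12 arrays, 17 by gene means, 543 and 3 with own and common background, and 1 to 62 with 1 array left out. In single against duct they were 3127, as deposited 8259 and with the common level 2003. In single against vesicle they were 2512, as deposited 4300, with the block 848, with own and common background 7806 and 1405, and without vesicle replicate 2 or 4 1521 and 1563. The causes of these changes were not tested. Signal over background limits Hnf4a, the second Egf probe set and Fxyd2 in most groups.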
